A study of Mus musculus with 14 samples.

Results

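The 35 genes described here are Atf4 itself, targets of ATF4, cytosolic aminoacyl-tRNA synthetases and kinases that act ahead of ATF4. They were taken by gene symbol from a count table of 52636 mouse genes, and all 35 were found. The members are 6 regulators (Atf4, Atf5, Ddit3, Cebpg, Nupr1, Trib3), 6 feedback and growth genes (Ppp1r15a, Eif4ebp1, Ddit4, Sesn2, Chac1, Vldlr), 8 amino acid and 1-carbon enzymes (Asns, Psat1, Phgdh, Psph, Shmt2, Mthfd2, Aldh18a1, Pycr1), 13 synthetases (Aars, Cars, Gars, Nars, Sars, Wars, Lars, Tars, Yars, Iars, Eprs, Vars, Hars) and the eIF2α kinases Eif2ak1 and Eif2ak4. Of these, 32 passed the filter on low counts and were tested; Asns, Chac1 and Vldlr did not pass and are given as read counts.

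The libraries came from mice that carried a transplanted I1DN leukemia, a mouse acute myeloid leukemia with mutant IDH1; its other alleles, the dose and the age of the mice are not stated in the labels. AG120 (ivosidenib) inhibits the mutant IDH1 enzyme, which makes the metabolite 2-hydroxyglutarate. Progenitors that stained for cKit and not for CD11b were sorted from each mouse. Relapsed leukemia after 28 days of AG120 gave 4 libraries, AG120 for 14 days gave 2, AG120 for 5 days gave 3, vehicle for 14 days gave 2 and vehicle for 5 days gave 3. No vehicle or AG120 group matches relapse in time, so relapse and time cannot be told apart in comparisons with it. The library names do not say whether AG120 was still given when relapse was sampled. Whether the leukemias of different mice arose from 1 donor clone, and how many host cells the sort retained, is not stated in the labels.

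Cells that lack an amino acid, haem or correct protein folding phosphorylate the translation factor eIF2 on its α subunit. General protein synthesis then slows, while the Atf4 mRNA, which has short reading frames ahead of its coding sequence, is translated more. ATF4 is a transcription factor that turns on genes for making, importing and activating amino acids, among them the synthetases, which join each amino acid to its tRNA. Since much of this control acts on translation, Atf4 mRNA is an incomplete measure of ATF4 protein. Eif2ak1 encodes HRI, the haem-regulated kinase prominent in erythroid precursors, and Eif2ak4 encodes GCN2, the sensor of uncharged tRNA.

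Total counts per library were 4995738 to 8691708, of which 5 ribosomal RNA gene models held 50.9% to 74.8%, and 1259982 to 3358874 counts remained for other genes. AG120 day 14 replicate 1 stood apart, with the highest ribosomal share and the lowest depth. Among the relapse libraries, replicates 1 and 4 correlated at 0.972 and replicates 2 and 3 at 0.957 across genes, against 0.920 to 0.935 for the other pairs. Levels are given as CPM, counts brought to a common library size after scaling for composition; each transcript is read once near its 3′ end, so CPM is not divided by gene length. Fold changes and p come from edgeR (quasi-likelihood fit), with p adjusted over 11994 genes by the Benjamini-Hochberg method. An adjusted p under 0.05 was counted as passed, and errors of log2 fold changes are approximate standard errors derived from the test statistic.

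ATF4 binds composite elements in DNA, for which the letters TGATGNAA were searched on both strands of the RefSeq promoter windows (GRCm38.p6, 250 bases before to 50 after a start). Of the 28 members with a window, 11 held these letters, compared with 4.51% of 27025 genes with a window. The stricter TGATGCAA, a subset of the same matches, was in 8 of 28 members, compared with 1.03% of all genes. Among the synthetases, 5 of the 7 with a window held TGATGNAA, while 0 of 6 other cytosolic synthetases and 0 of 14 mitochondrial ones with a window held it. Cars, Nars, Wars, Lars, Vars and Hars had no window. Since the members were chosen as ATF4 targets and synthetases, their higher share may follow from that choice and is not separate evidence. CACGTG, another hexamer bound by many factors, was in 5 of 28 members and 8.09% of all genes. The windows below are shown because synthetases whose reads were plentiful and targets whose reads were nearly absent carried the same letters; capitals mark the match, which reads TTGCATCA or TTTCATCA where it lies on the opposite strand.
Aars: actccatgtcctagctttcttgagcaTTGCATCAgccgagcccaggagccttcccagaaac
Gars: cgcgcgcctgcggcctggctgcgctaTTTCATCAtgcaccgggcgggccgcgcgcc
Tars: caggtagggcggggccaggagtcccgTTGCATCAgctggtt
Yars: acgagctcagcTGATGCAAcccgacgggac
Iars: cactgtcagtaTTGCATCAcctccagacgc
Nupr1: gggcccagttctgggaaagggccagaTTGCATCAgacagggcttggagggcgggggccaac
Chac1: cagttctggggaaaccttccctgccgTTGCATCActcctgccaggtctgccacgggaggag
Asns: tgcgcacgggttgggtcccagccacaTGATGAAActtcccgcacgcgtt
In GRCm38.p6 these windows are Aars chr8:111033704-111033764 (plus strand), Gars chr6:55037945-55038000 (plus), Tars chr15:11399659-11399699 (minus), Yars chr4:129189895-129189924 (plus), Iars chr13:49682126-49682155 (plus), Nupr1 chr7:126625546-126625606 (minus), Chac1 chr2:119351023-119351083 (plus) and Asns chr6:7693210-7693258 (minus). A match describes the letters only, and binding was not measured.

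Under AG120 most synthetases rose, while most of the other members did not pass the test. At day 5, 19 of the 32 tested members rose and 0 fell, including 12 of the 13 synthetases and 7 of the 19 other members. DESeq2 called 16 members and 10 synthetases at day 5. Over all genes tested, 20.1% rose and 19.3% fell in that comparison (39.4% in either direction). At day 14, 14 members rose and 1 fell, including 9 of the 13 synthetases and 5 of the 19 others, compared with 16.8% of all genes that rose and 17.9% that fell (34.7% in either direction). Without AG120 day 14 replicate 1, with the remaining library assumed to vary like the other groups, 12 members rose at day 14 and 0 fell, and 9 synthetases were again among those that rose. The median log2 fold change of the synthetases was 0.92 at day 14 and 0.77 at day 5, and that of all genes was -0.01 at day 14 and 0.00 at day 5. In bulk RNA, more cells of a kind and more RNA per cell cannot be told apart. The heat map of members by library shows the synthetase block above vehicle in all 5 AG120 libraries.

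**Figure D1:**
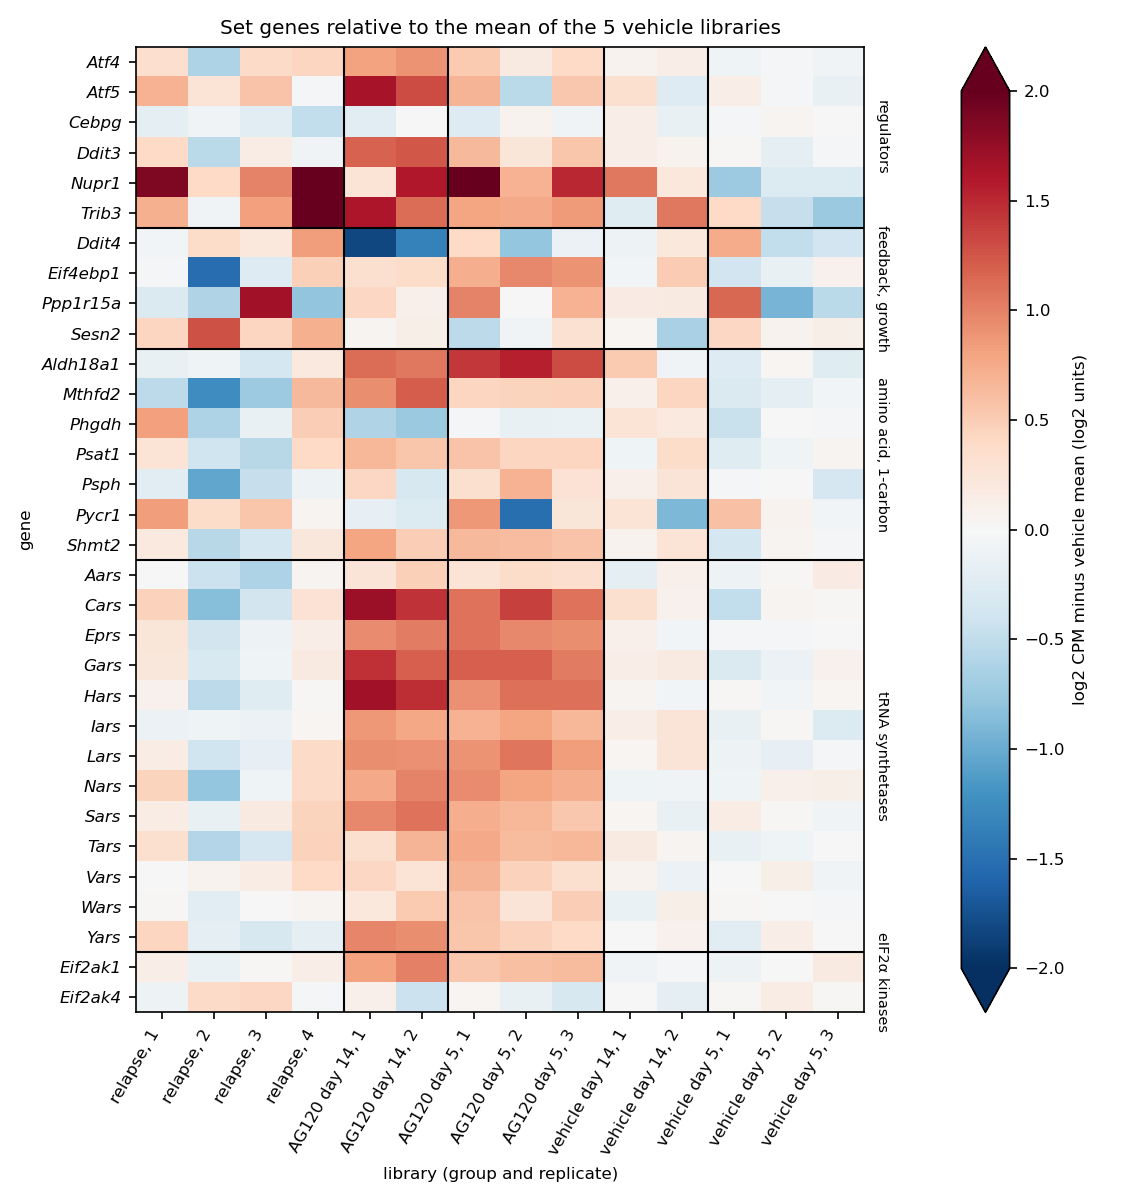
Heat map of the 32 tested members (rows, grouped by role) in the 14 libraries (columns, by group and replicate); colour gives log2 CPM minus the mean of the 5 vehicle libraries, cut at 2 in either direction. The synthetase rows are red throughout the AG120 columns, while relapse replicate 2 is blue in most of them.

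Summed over the 13 synthetases, the level was 1227 and 1280 CPM under AG120 at day 14, against 696 and 677 CPM under vehicle at day 14. At day 5 the sum was 1244, 1192 and 1131 CPM under AG120, against 641, 668 and 675 CPM under vehicle. The groups did not overlap at either day. Taken gene by gene, the AG120 libraries lay above the vehicle libraries of the same day without overlap for all 13 synthetases at both days. Over all genes such separation upward occurred in 34.2% at day 14 and 30.1% at day 5.

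Gars encodes glycyl-tRNA synthetase (chr6:55038007-55079500, plus strand). It had 114.6 and 95.5 CPM under AG120 at day 14, against 45.7 and 47.3 CPM under vehicle. At day 5 it had 95.2, 96.1 and 86.1 CPM under AG120, against 34.2, 38.3 and 44.2 CPM under vehicle. The lowest AG120 library was thus above the highest vehicle library, and the log2 fold change was 1.17 ± 0.18 at day 14 (adjusted p = 8.93e-05) and 1.25 ± 0.15 at day 5 (adjusted p = 5.29e-06). Eprs, the enzyme that charges both glutamate and proline tRNAs (chr1:185363044-185428360, plus strand), had 325.4 and 343.9 CPM under AG120 at day 14, against 181.2 and 162.4 CPM under vehicle. The day 5 values of Eprs were 358.5, 326.9 and 321.3 CPM under AG120, against 165.6, 166.6 and 168.1 CPM under vehicle. The change was close to 2-fold on both days, with a log2 fold change of 0.96 ± 0.16 at day 14 (adjusted p = 0.000249) and 1.01 ± 0.13 at day 5 (adjusted p = 1.94e-05).

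Hars, the histidine enzyme (chr18:36766528-36783205, minus strand), had 65.1 and 56.6 CPM under AG120 at day 14, against 20.9 and 19.3 CPM under vehicle. At day 5 Hars had 38.1, 43.5 and 43.8 CPM under AG120, against 20.5, 19.5 and 20.7 CPM under vehicle. Vehicle levels were nearly the same on both days, and the AG120 levels at day 14 were all above those at day 5. The log2 fold change was 1.59 ± 0.18 at day 14 (adjusted p = 4.57e-06) and 1.05 ± 0.15 at day 5 (adjusted p = 3.33e-05). Cars, the cysteine enzyme (chr7:143557230-143600090, minus strand), had 27.8 and 23.2 CPM under AG120 at day 14, against 10.4 and 8.85 CPM under vehicle. The day 5 values of Cars were 18.0, 21.8 and 17.9 CPM under AG120, against 5.84, 8.62 and 8.47 CPM under vehicle. No AG120 library overlapped a vehicle library, and the log2 fold change was 1.40 ± 0.31 at day 14 (adjusted p = 0.00249) and 1.32 ± 0.25 at day 5 (adjusted p = 0.000664).

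The leucine, isoleucine, asparagine, serine and tyrosine enzymes also rose on both days. Their log2 fold changes were 0.77 ± 0.20 at day 14 and 1.04 ± 0.16 at day 5 for Lars, 0.63 ± 0.15 and 0.85 ± 0.12 for Iars, 0.96 ± 0.28 and 0.77 ± 0.22 for Nars, 1.07 ± 0.17 and 0.61 ± 0.14 for Sars, and 0.92 ± 0.22 and 0.50 ± 0.17 for Yars, in the same order of days. The threonine, valine and tryptophan enzymes rose at day 5, by 0.76 ± 0.21 for Tars, 0.48 ± 0.13 for Vars and 0.46 ± 0.16 for Wars. At day 14 they had 0.40 ± 0.26, 0.36 ± 0.16 and 0.40 ± 0.20, with adjusted p of 0.259, 0.0992 and 0.136. Aars, the alanine enzyme (chr8:111033144-111057664, plus strand), passed on neither day. It had 41.8 and 48.8 CPM under AG120 at day 14, against 30.8 and 37.3 CPM under vehicle (log2 fold change 0.42 ± 0.20, adjusted p = 0.125). At day 5 Aars had 42.4, 45.0 and 44.2 CPM under AG120, against 32.5, 35.6 and 39.2 CPM under vehicle (0.29 ± 0.16, adjusted p = 0.161). Its AG120 libraries were above vehicle without overlap, with the smallest change of the 13 at day 5, and its promoter window held the motif. Of the exonic bases of Aars, 15.1% are shared with other genes, and 1326 bases are shared on the same strand, where Exosc6 lies. The level of Aars is therefore less certain. At day 5, the call of Nars was lost without AG120 replicate 1 or vehicle replicate 1 (adjusted p 0.0505 to 0.0539), that of Wars without AG120 replicate 1 or 3 or any 1 vehicle library (0.0629 to 0.111), and that of Yars without any 1 AG120 library or vehicle replicate 1 or 3 (0.0536 to 0.118). The day 5 calls of Wars and Yars were also lost by DESeq2 (0.0732 for Wars, and at the threshold for Yars) and with no filter on low counts (0.186 and 0.0575). At day 14, Lars was lost without vehicle replicate 1 (0.0707), Nars without AG120 replicate 2 or either vehicle library (0.0825 to 0.105), and Iars with no filter (0.0553). In a fit of only the groups compared, Tars passed at day 14 (0.37, adjusted p = 0.0432) and Aars at day 5 (0.27, adjusted p = 0.0181).

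**Figure D2:**
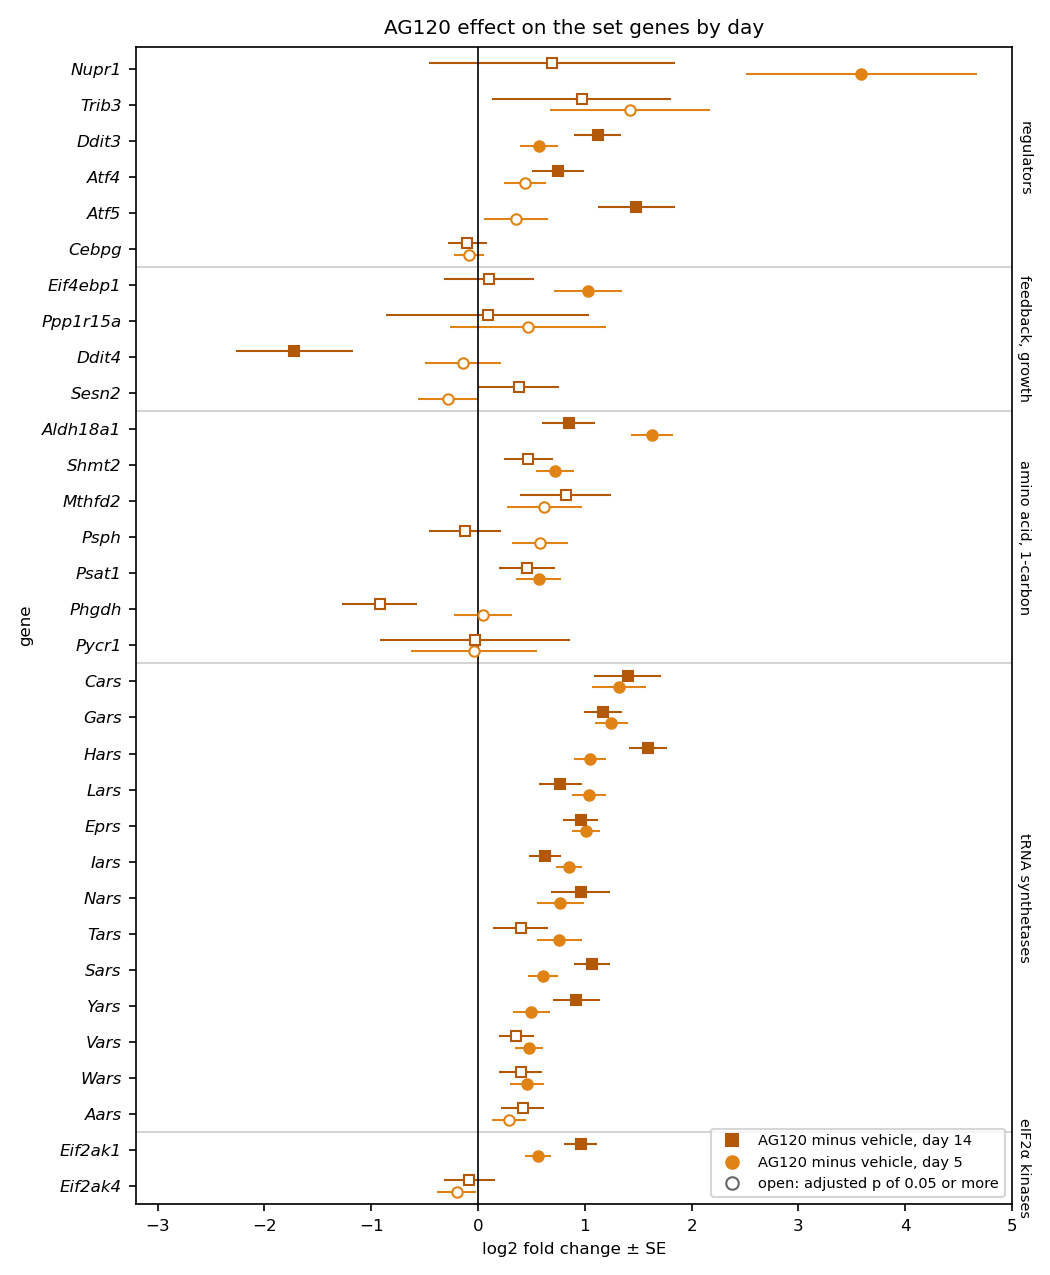
Log2 fold change of AG120 against vehicle for the 32 tested members (rows, grouped by role) at day 14 (squares) and day 5 (circles); horizontal bars are standard errors and open symbols did not pass. All 13 synthetases lie right of 0 on both days, while Cebpg, Ddit4, Eif2ak4 and, only just, Pycr1 lie left of 0 on both days.

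Among the regulators, Ddit3 rose on both days, Atf4 and Atf5 passed at day 14 only, and Cebpg was close to level. Atf4 (chr15:80255184-80257541, plus strand) had 202.4 and 217.0 CPM under AG120 at day 14, against 122.3 and 126.9 CPM under vehicle. The day 5 values of Atf4 were 167.6, 131.0 and 153.8 CPM under AG120, against 109.1, 112.9 and 111.2 CPM under vehicle. The AG120 libraries were above vehicle without overlap on both days. The log2 fold change was 0.75 ± 0.24 at day 14 (adjusted p = 0.0259) and 0.44 ± 0.20 at day 5, which did not pass (adjusted p = 0.0899). Without any 1 of the 4 day 14 libraries the day 14 call was lost (adjusted p 0.0708 to 0.124), and without relapse replicate 2, whose Atf4 level lies far from the other relapse libraries, day 5 passed (0.42, adjusted p = 0.00238). Day 5 also passed with no filter on low counts (0.41, adjusted p = 0.0231) and with only the groups compared (0.42, adjusted p = 6.29e-05).

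Ddit3 encodes CHOP, a transcription factor of the prolonged stress response. It had 55.2 and 57.6 CPM under AG120 at day 14, against 26.5 and 25.6 CPM under vehicle. At day 5 Ddit3 had 38.4, 28.7 and 35.9 CPM under AG120, against 24.6, 21.3 and 23.6 CPM under vehicle. No AG120 library overlapped vehicle, and the log2 fold change was 1.12 ± 0.22 at day 14 (adjusted p = 0.000948) and 0.57 ± 0.18 at day 5 (adjusted p = 0.0194). The day 5 call was lost without AG120 replicate 1 or 3 or vehicle replicate 2 (adjusted p 0.0646 to 0.0859). Ddit3 ends inside Mars on the opposite strand, and 10.9% of its exonic bases are shared with other genes. Of the shared bases, 105 are on the same strand, where another gene model named Ddit3 lies, and 81 are on the opposite strand. Mars itself rose by 0.76 ± 0.23 at day 14 and 0.52 ± 0.18 at day 5, and without knowing whether counting used strand the reads of the pair cannot be fully told apart.

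Atf5, a relative of ATF4 that guards mitochondrial protein folding, had 14.9 and 11.6 CPM under AG120 at day 14, against 5.71 and 3.73 CPM under vehicle. The day 5 values of Atf5 were 7.47, 3.02 and 6.71 CPM under AG120, against 4.98, 4.42 and 4.07 CPM under vehicle. The groups separated at day 14 and overlapped at day 5, with a log2 fold change of 1.48 ± 0.36 at day 14 (adjusted p = 0.00455; 0.0658 without vehicle replicate 2) and 0.36 ± 0.30 at day 5 (adjusted p = 0.359). Cebpg, a dimer partner of ATF4, had log2 fold changes of -0.10 ± 0.18 at day 14 and -0.08 ± 0.14 at day 5, with 95% intervals of -0.48 to 0.27 and -0.38 to 0.21.

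Nupr1 and Trib3, stress genes often used as sensitive readouts of ATF4 and CHOP, were scarce. Nupr1 had 12, 3 and 7 reads under AG120 at day 5, against 0, 1 and 1 reads under vehicle. Adjusted for depth, that is a ratio of 14.7 with a 95% exact counting interval of 3.62 to 129.3, and it passed the test (log2 fold change 3.59 ± 1.08, adjusted p = 0.0144). Nupr1 passed the filter on low counts only through AG120 day 5 replicate 1 and relapse replicate 4, with 12 and 30 reads. Without either library, or with only the groups compared, it was not tested. Its call, 1 of the 19 at day 5, could not be checked there. At day 14 Nupr1 had 1 and 6 reads under AG120, against 5 and 2 reads under vehicle, and the groups overlapped. Trib3, an inhibitor of AKT and of ATF4 itself, had 8 and 8 reads under AG120 at day 14, against 3 and 11 under vehicle. At day 5 it had 8, 7 and 8 reads under AG120, against 6, 3 and 2 under vehicle, and passed on neither day (adjusted p 0.396 at day 14 and 0.143 at day 5).

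**Figure D3:**
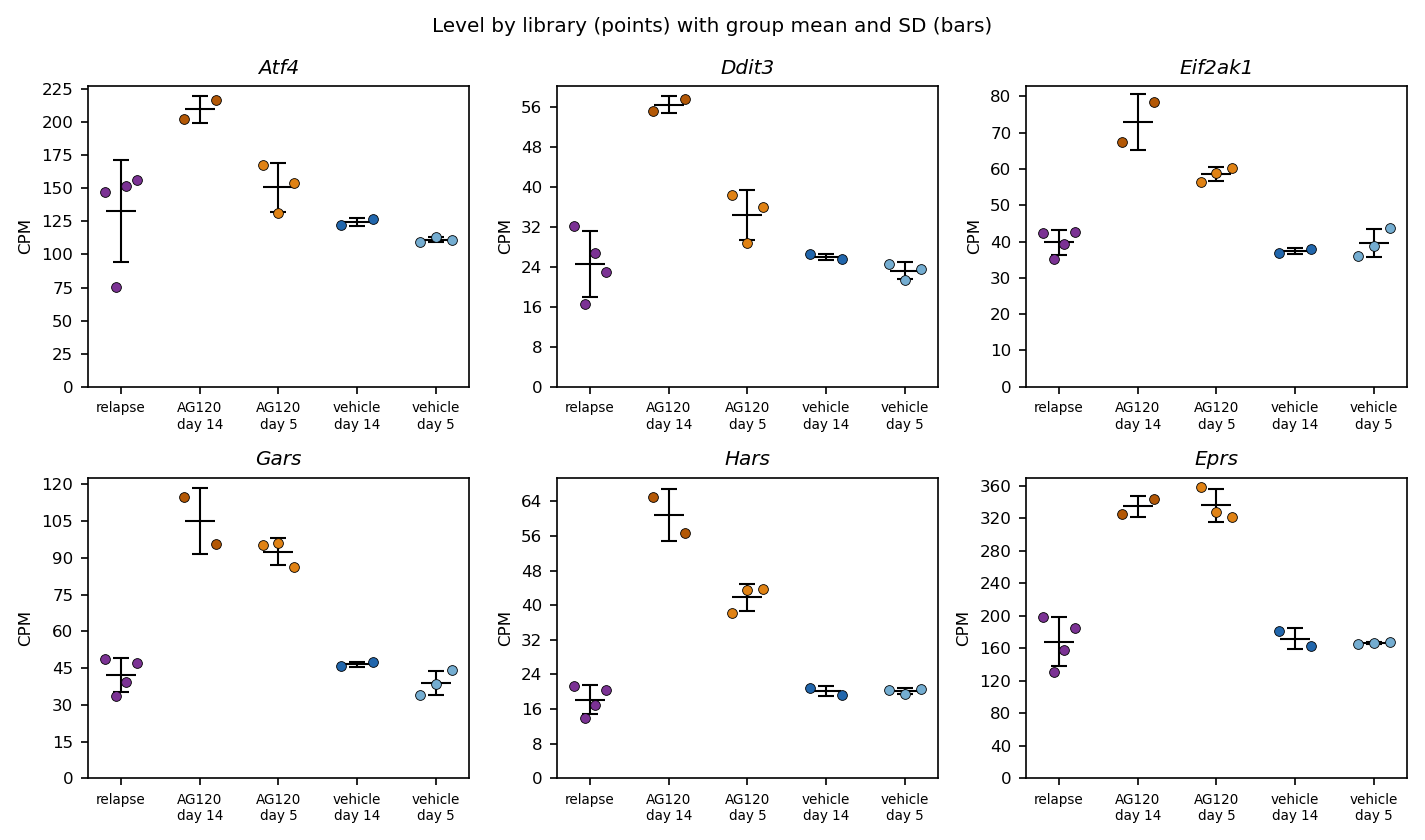
CPM by library (points) with group mean and SD (bars) for Atf4, Ddit3, Eif2ak1, Gars, Hars and Eprs in relapse, AG120 and vehicle libraries. The AG120 points lie above the vehicle points of the same day in every panel, and the relapse points lie around vehicle, with replicate 2 of relapse lowest in all 6.

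The feedback and growth genes did not move together. Eif4ebp1, a repressor of cap-dependent translation, had 7.16 and 7.41 CPM under AG120 at day 14, against 5.42 and 8.15 CPM under vehicle. At day 5 Eif4ebp1 had 9.60, 11.3 and 10.9 CPM under AG120, against 4.27, 5.08 and 6.05 CPM under vehicle. It separated and rose at day 5 (1.03 ± 0.32, adjusted p = 0.0184) and overlapped at day 14 (0.10 ± 0.42, adjusted p = 0.879). The day 5 call was lost without AG120 replicate 2 or 3 or vehicle replicate 1 or 2 (adjusted p 0.0535 to 0.0696). Ddit4, an inhibitor of mTORC1, was the member that fell. It had 1.79 and 2.60 CPM under AG120 at day 14, against 6.59 and 8.29 CPM under vehicle, a log2 fold change of -1.72 ± 0.55 (adjusted p = 0.0243). At day 5 Ddit4 had 9.45, 4.03 and 6.55 CPM under AG120, against 12.1, 4.97 and 5.39 CPM under vehicle, and the groups overlapped (-0.14 ± 0.36, adjusted p = 0.795). Its day 14 call was lost without either AG120 library or vehicle replicate 2 (adjusted p 0.0888 to 0.128) and by limma-voom (0.0929). Ppp1r15a, which encodes the phosphatase subunit GADD34 that reverses eIF2α phosphorylation, ranged from 14.6 to 29.4 CPM under AG120 and from 7.52 to 32.5 CPM under vehicle over both days, and did not pass (adjusted p 0.958 at day 14 and 0.647 at day 5). Sesn2, a leucine sensor that restrains mTORC1, had 0.38 ± 0.38 at day 14 and -0.28 ± 0.28 at day 5, with adjusted p of 0.463 and 0.460.

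Chac1 and Vldlr were close to the detection limit. Chac1, a glutathione-degrading enzyme and a strong ATF4 target, had 1 and 1 reads under AG120 at day 14, against 1 and 2 under vehicle, and 1, 1 and 2 reads under AG120 at day 5, against 0, 1 and 1 under vehicle. Vldlr, a lipoprotein receptor, had 3 and 0 reads under AG120 at day 14, against 1 and 3 under vehicle, and 0, 1 and 0 reads under AG120 at day 5, against 3, 1 and 2 under vehicle. A count of 0 allows up to 3 reads, so differences of this size were not detectable at this depth.

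Of the 7 tested enzymes of serine, glycine, proline and 1-carbon metabolism, 1 rose at day 14 and 3 at day 5, and 0 fell. The day 14 count is near the 16.8% of all genes that rose then, and 20.1% rose at day 5. Aldh18a1, the first enzyme of proline synthesis (chr19:40550257-40588463, minus strand), had 12.2 and 11.8 CPM under AG120 at day 14, against 8.06 and 5.25 CPM under vehicle. At day 5 Aldh18a1 had 15.2, 16.8 and 14.1 CPM under AG120, against 4.56, 5.64 and 4.62 CPM under vehicle. Its groups were apart on both days, with 0.85 ± 0.25 at day 14 (adjusted p = 0.0152) and 1.63 ± 0.20 at day 5 (adjusted p = 8.79e-06). The day 14 call was lost without either AG120 library or vehicle replicate 2 (adjusted p 0.0628 to 0.175) and with no filter on low counts (0.077). Shmt2, the mitochondrial enzyme that splits serine to glycine, had 40.2, 39.5 and 38.3 CPM under AG120 at day 5, against 19.9, 26.5 and 25.0 CPM under vehicle, and rose by 0.72 ± 0.18 (adjusted p = 0.00538). At day 14 Shmt2 had 44.5 and 36.2 CPM under AG120, against 27.0 and 31.0 CPM under vehicle (0.47 ± 0.23, adjusted p = 0.123).

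Psat1, the aminotransferase of serine synthesis, had 39.9, 36.3 and 36.3 CPM under AG120 at day 5, against 22.6, 25.2 and 27.8 CPM under vehicle. The groups were apart, but the call was weak (0.57 ± 0.21, adjusted p = 0.0409) and was lost without any 1 of the day 5 libraries or either AG120 day 14 library (adjusted p 0.0548 to 0.129), with other size factors (RLE, 0.0509), by DESeq2 (0.0512) and with the ribosomal gene models left out (0.0583). Phgdh, which starts serine synthesis, did not follow. It had 51.9 and 47.2 CPM under AG120 at day 14, against 96.1 and 90.8 CPM under vehicle, and the AG120 libraries were the lower ones there (-0.92 ± 0.35, adjusted p = 0.0560). At day 5 Phgdh had 78.2, 71.6 and 72.3 CPM under AG120, against 57.8, 79.2 and 77.6 CPM under vehicle (0.05 ± 0.27, adjusted p = 0.912). The day 14 difference of Phgdh passed without relapse replicate 1, 2 or 3 (-0.92 each, adjusted p 0.0146, 0.00912 and 0.0470), by DESeq2 (-0.91, adjusted p = 0.0242), with no filter on low counts (-1.02, adjusted p = 0.0113) and in a fit of only the groups compared (-0.94, adjusted p = 2.84e-05). Psph, the phosphatase that completes serine synthesis, had -0.12 ± 0.34 at day 14 and 0.58 ± 0.26 at day 5, and passed on neither day.

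Mthfd2, a mitochondrial folate enzyme often high in dividing cells, had 44.2 and 53.8 CPM under AG120 at day 14, against 24.8 and 31.1 CPM under vehicle. At day 5 Mthfd2 had 31.4, 31.6 and 31.9 CPM under AG120, against 18.9, 20.4 and 22.2 CPM under vehicle. The AG120 libraries were above vehicle without overlap on both days, yet the test did not pass (0.82 ± 0.43, adjusted p = 0.164 at day 14; 0.62 ± 0.35, adjusted p = 0.181 at day 5). The relapse libraries, which share its estimate of spread, ranged from 9.62 to 36.6 CPM, and without relapse replicate 4 both days passed (0.82, adjusted p = 0.00316 at day 14; 0.62, adjusted p = 0.00470 at day 5). Both days also passed in a fit of only the groups compared (0.79, adjusted p = 0.000749 at day 14; 0.60, adjusted p = 1.48e-05 at day 5).

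Asns, asparagine synthetase and the classic amino-acid-response gene (chr6:7675169-7693254, minus strand), was nearly absent. It had 4 and 1 reads under AG120 at day 14, against 1 and 1 under vehicle, and 0, 0 and 3 reads under AG120 at day 5, against 0, 0 and 1 under vehicle. The depth-adjusted ratio was 4.21 at day 14, with a counting interval of 0.690 to 44.2, and 4.02 at day 5, with an interval of 0.323 to 211.1. Both intervals include 1. Pycr1, the last enzyme of mitochondrial proline synthesis, had 3 and 4 reads under AG120 at day 14, against 9 and 3 under vehicle, and 14, 1 and 8 reads under AG120 at day 5, against 12, 10 and 9 under vehicle. Thus the 8 letters TGATGCAA were in the windows of Chac1, Vldlr and Pycr1, which had few reads in any group, as well as in those of the abundant Tars, Yars and Iars.

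**Figure D4:**
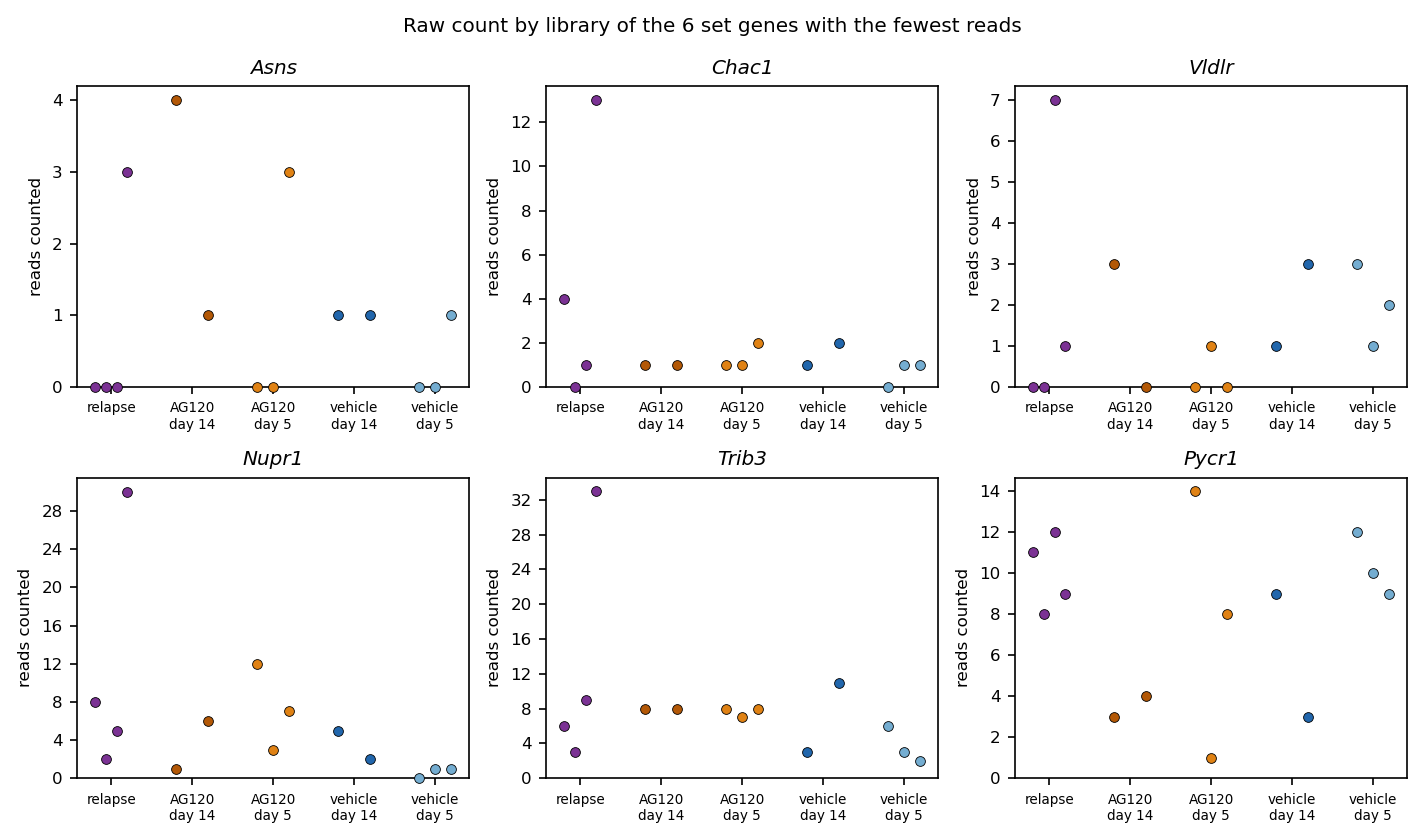
Raw read counts by library (points) of the 6 members with the fewest reads, Asns, Chac1, Vldlr, Nupr1, Trib3 and Pycr1, in relapse, AG120 and vehicle libraries. Relapse replicate 4 is the highest point of Chac1, Nupr1 and Trib3, with 13, 30 and 33 reads.

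The kinases differed. Eif2ak1 (chr5:143817788-143904251, plus strand) had 67.5 and 78.3 CPM under AG120 at day 14, against 36.8 and 38.0 CPM under vehicle. At day 5 it had 56.4, 58.8 and 60.2 CPM under AG120, against 36.0, 38.9 and 43.7 CPM under vehicle. It rose without overlap on both days (0.96 ± 0.15, adjusted p = 9.63e-05 at day 14; 0.56 ± 0.12, adjusted p = 0.00136 at day 5). Aimp2, a scaffold protein of the synthetase complex that overlaps Eif2ak1 on the opposite strand, rose as well, by 0.90 ± 0.19 at day 14 and 0.61 ± 0.15 at day 5, and 11.6% of the exonic bases of Eif2ak1 are shared with neighbours. Eif2ak4 had 14.3 and 9.81 CPM under AG120 at day 14, against 13.5 and 11.6 CPM under vehicle, and 13.7, 12.1 and 10.7 CPM under AG120 at day 5, against 13.5, 14.8 and 13.6 CPM under vehicle. Its groups overlapped on both days, and the 95% intervals of its log2 fold change were -0.58 to 0.42 at day 14 and -0.58 to 0.18 at day 5. Of the other kinases, Eif2ak2 (PKR, activated by double-stranded RNA) rose by 0.71 ± 0.24 at day 14 and 0.83 ± 0.18 at day 5, and Eif2ak3 (PERK, of the endoplasmic reticulum) had 0.14 ± 0.30 and 0.03 ± 0.23, with adjusted p of 0.754 and 0.925.

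Most genes on the list of the rest of the eIF2 machinery rose. Of its 15 genes, 9 rose at day 14 and 12 at day 5, and 0 fell on either day, against the 16.8% and 20.1% of all genes that rose at days 14 and 5. Eif2b3 and Eif2b4, subunits of the exchange factor that phosphorylated eIF2 blocks, rose by 1.49 ± 0.21 and 1.39 ± 0.19 at day 14 and by 0.98 ± 0.17 and 0.96 ± 0.15 at day 5. Eif2b4 had 80.9 and 84.3 CPM under AG120 at day 14, against 31.2 and 31.8 CPM under vehicle. Ppp1r15b, the constitutive partner of the eIF2α phosphatase, rose by 1.12 ± 0.17 at day 14.

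Synthetases outside the set were also mostly higher. Of the 7 other cytosolic synthetases, 6 rose at day 14 and 7 at day 5, so that of all 20 cytosolic synthetases 15 rose at day 14 and 19 at day 5. Among all genes tested, 16.8% rose at day 14 and 20.1% at day 5. Farsb, the phenylalanine enzyme's β subunit, rose by 0.58 ± 0.22 at day 14 and 0.97 ± 0.18 at day 5, and Qars, the glutamine enzyme, by 0.78 ± 0.18 and 0.63 ± 0.14. Of the 17 mitochondrial synthetases, 6 rose at day 14 and 10 at day 5, against the same shares of all genes, and none fell on either day. Nars2 rose by 1.58 ± 0.45 at day 14 and 1.17 ± 0.35 at day 5. The median log2 fold change was 0.62 at day 14 and 0.67 at day 5 for the mitochondrial list, whose windows held no TGATGNAA.

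Of 9 tested amino acid transporters, 3 rose and 2 fell at day 14, and 5 rose and 1 fell at day 5. Over all genes 16.8% rose and 17.9% fell at day 14, and 20.1% rose and 19.3% fell at day 5, so the counts that fell are near those of all genes or below them. Slc7a5, the large neutral amino acid carrier, rose by 1.25 ± 0.28 at day 14 and 1.20 ± 0.23 at day 5. Slc43a1, a carrier of branched-chain amino acids, had 69.3 and 47.8 CPM under AG120 at day 14, against 10.5 and 11.6 CPM under vehicle (2.39 ± 0.35, adjusted p = 0.000119). Slc38a2, a carrier of small neutral amino acids that is a known ATF4 target, fell by 0.72 on the log2 scale at day 14 and by 0.67 at day 5. Slc1a4 and Slc7a11 rose at day 5 by 1.73 ± 0.51 and 1.81 ± 0.65, each at under 3 CPM in every library of that day.

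Of 10 tested genes on the list of further ATF4 targets, 2 rose and 1 fell at day 14, and 3 rose and 2 fell at day 5, shares close to those of all genes. Mthfd1l, a mitochondrial folate enzyme, rose by 1.05 ± 0.19 at day 14 and 1.35 ± 0.15 at day 5, and Xpot, which exports tRNA from the nucleus, by 0.54 ± 0.18 and 0.74 ± 0.15. Jdp2, a bZIP repressor, fell by 2.11 on the log2 scale at day 14 and by 2.43 at day 5. Gdf15, a stress-induced hormone, had 0.914, 1.51 and 1.28 CPM under AG120 at day 5, against 2.56, 4.75 and 4.29 CPM under vehicle, and fell by 1.65 on the log2 scale (adjusted p = 0.00137). Among 7 tested paralogs of the serine, glycine and proline enzymes, 2 rose and 2 fell at day 14, and 3 rose at day 5, against the same shares of all genes. Mthfd1, the cytosolic 1-carbon enzyme (chr12:76255298-76319803, plus strand), had 112.8 and 109.3 CPM under AG120 at day 14, against 23.9 and 24.7 CPM under vehicle. It rose by 2.19 ± 0.17 at day 14 (adjusted p = 8.06e-08) and by 2.05 ± 0.14 at day 5 (adjusted p = 1.37e-08). Prodh, which breaks down proline, fell by 2.09 on the log2 scale at day 14 and had 0.15 ± 0.31 at day 5.

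**Figure D5:**
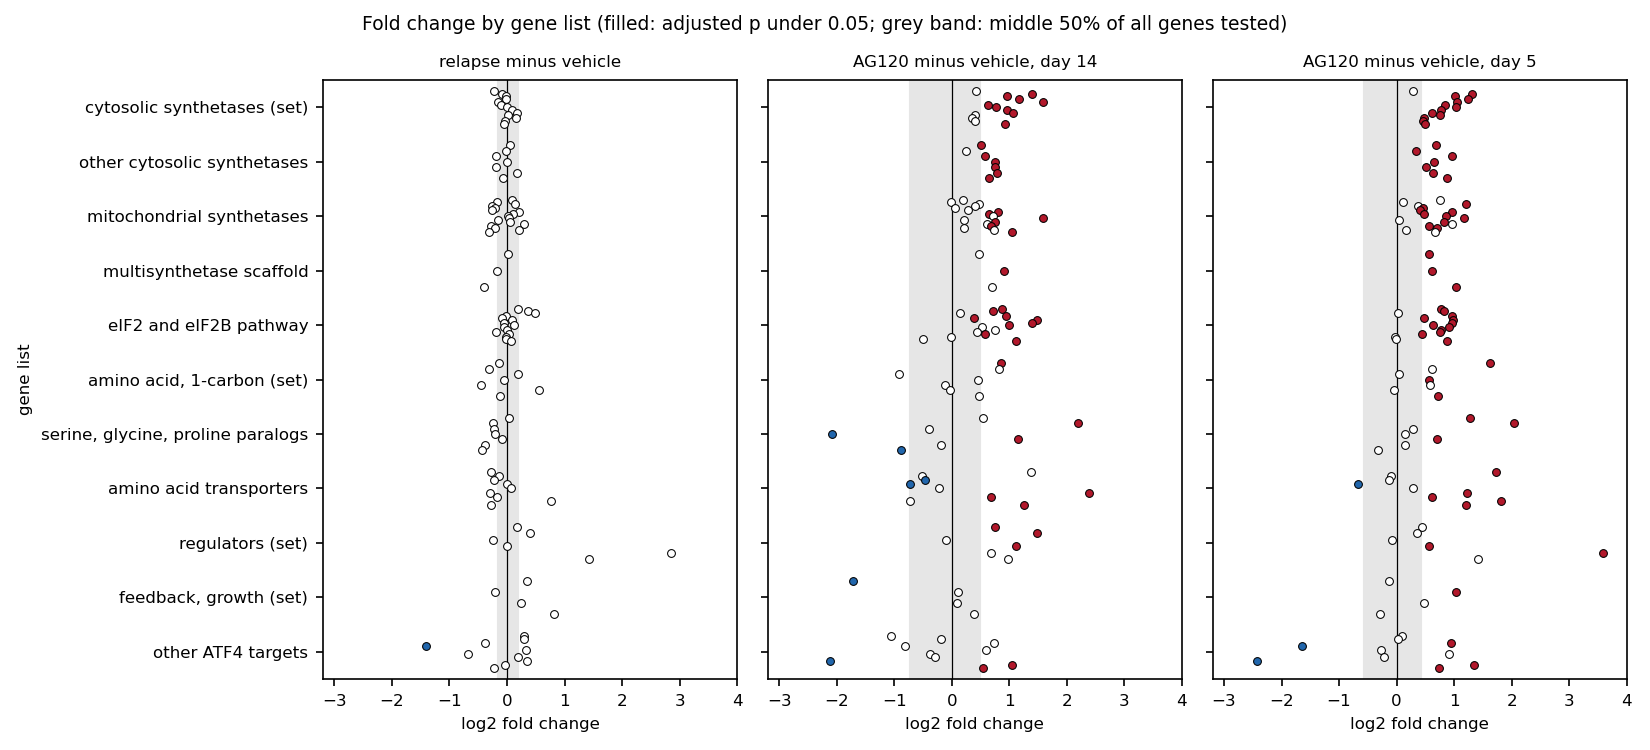
Log2 fold change of every tested gene (points) in the set and its related lists (rows) for relapse minus vehicle, AG120 minus vehicle at day 14 and AG120 minus vehicle at day 5; filled points passed, and the grey band holds the middle 50% of all genes tested. Most points of the synthetase and eIF2 rows lie right of 0 under AG120, the target and transporter rows lie on both sides, and the relapse panel is centred near 0.

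Day 14 was set against day 5 as a difference of effects, and 0 of the 32 members passed, compared with 0.934% of all genes. DESeq2 and limma-voom also found 0. Among all 11994 genes tested, 1482 had an unadjusted p under 0.05, and 7 of the 32 members did. These were Hars (0.54 ± 0.23), Sars (0.46 ± 0.22), Eif2ak1 (0.40 ± 0.19) and Atf5 (1.12 ± 0.47), with a larger effect at day 14, and Aldh18a1 (-0.78 ± 0.32), Phgdh (-0.96 ± 0.44) and Ddit4 (-1.58 ± 0.66), with a lower one. Their adjusted p were 0.330 to 0.404. For Gars and Eprs the 95% interval of the difference was -0.56 to 0.41 and -0.49 to 0.40.

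In relapse the synthetases lay near the vehicle level. Compared with the mean of both AG120 groups, 21 of the 32 members fell and 3 rose in relapse, with 12 of the 13 synthetases among those that fell. Over all genes 26.1% fell and 27.9% rose in that comparison (54.0% in either direction). Leaving out AG120 day 14 replicate 1 changed which members rose, as Phgdh was lost and Eif2ak4 was gained (log2 fold change 0.48). Relapse libraries were below all 5 AG120 libraries without overlap for 10 of the 13 synthetases and 14 of the 32 members, compared with 18.9% of all genes. Summed over the 13 synthetases, relapse had 784, 514, 621 and 808 CPM, against 1131 to 1280 CPM over the 5 AG120 libraries. This comparison uses the same AG120 libraries as those above, so its direction is not separate evidence; the comparison with vehicle likewise shares the vehicle libraries.

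Hars had 21.3, 13.9, 16.9 and 20.5 CPM in relapse, against 38.1 to 65.1 CPM over the AG120 libraries, and fell by 1.47 on the log2 scale (adjusted p = 5.69e-08). Gars had 48.6, 33.5, 39.1 and 47.1 CPM in relapse, against 86.1 to 114.6 CPM over the AG120 libraries, and fell by 1.23 on the log2 scale (adjusted p = 3.92e-07). Vars, with 48.4, 51.3, 54.1 and 64.0 CPM in relapse, was the synthetase that did not pass (-0.26 ± 0.11, adjusted p = 0.0582); it passed without relapse replicate 4 (-0.35, adjusted p = 0.0149) and without AG120 day 5 replicate 3 (-0.30, adjusted p = 0.0423). Tars and Wars lost their calls without AG120 day 14 replicate 2 (adjusted p 0.0712 and 0.0705).

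Ddit3 fell by 0.84 and Eif2ak1 by 0.71 on the log2 scale in relapse, and Aldh18a1, Mthfd2, Shmt2, Psph and Psat1 fell by 1.38, 1.02, 0.71, 0.69 and 0.56. Psat1 lost its call without relapse replicate 2 (adjusted p = 0.0629), and Psph without relapse replicate 2 or AG120 day 14 replicate 1 (0.0818 to 0.129). Atf4 fell by 0.42 on the log2 scale (adjusted p = 0.0419), a call lost without relapse replicate 2, either AG120 day 14 library, AG120 day 5 replicate 1 or 3 or any 1 vehicle library (0.0536 to 0.113), with other size factors (0.0545), without the ribosomal models (0.0645) and with only the groups compared (0.124). Eif4ebp1 fell by 0.78, a call lost without relapse replicate 2 or 3, either AG120 day 14 library or AG120 day 5 replicate 2 or 3 (0.0513 to 0.0883). The members that rose in relapse against AG120 were Ddit4 (1.26 ± 0.34), Sesn2 (0.76 ± 0.24) and Phgdh (0.62 ± 0.23); the last was lost without relapse replicate 1 or 4, either AG120 day 14 library or AG120 day 5 replicate 2 or 3 (0.0583 to 0.115), and by limma-voom (0.0872). With no filter on low counts the calls of Psph, Mthfd2 and Wars were lost as well (0.0626, 0.0787 and 0.101), and with only the groups compared those of Psph and Eif4ebp1 (0.0575 and 0.0679). Eif2ak4 (0.34 ± 0.16, adjusted p = 0.0721) passed without relapse replicate 1 or 4 (0.42 each, 0.0327 and 0.0426). It also passed without the ribosomal models (0.38, 0.0479). Atf5 (-0.52 ± 0.24, adjusted p = 0.08) passed without relapse replicate 1 (-0.64, 0.0484) or AG120 day 5 replicate 2 (-0.67, 0.0141).

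No vehicle group matched relapse in time, so relapse and time cannot be told apart in a comparison with vehicle. Against the mean of both vehicle groups, 0 of the 32 members passed in relapse, compared with 0.183% of all genes. DESeq2 and limma-voom also found 0, and 3 members had an unadjusted p under 0.05, namely Nupr1 (2.85 ± 0.74), Trib3 (1.42 ± 0.55) and Sesn2 (0.81 ± 0.23), with adjusted p of 0.117, 0.329 and 0.162. Among all 11994 genes tested, 1389 had an unadjusted p under 0.05 in that comparison, so 3 of 32 members is not more than the share of all genes. Without relapse replicate 2, Nupr1 (3.18, adjusted p = 0.0309) and Atf4 (0.39, adjusted p = 0.0429) passed, and without relapse replicate 4, Mthfd2 passed in the other direction (-0.86, adjusted p = 0.0231). The 95% interval of the synthetases' log2 fold change was -0.27 to 0.24 for Gars, -0.24 to 0.22 for Eprs, -0.42 to 0.12 for Hars and -0.55 to 0.39 for Cars. The median over the 13 was -0.02, and that of all genes was 0.02. Sesn2 had 6.99, 12.8, 7.02 and 8.63 CPM in relapse, against 3.18 to 6.98 CPM over the 5 vehicle libraries, and was the single member whose relapse libraries all lay above vehicle, compared with 1.98% of all genes. Among the related lists 1 gene passed, Gdf15, with 1.70, 1.07, 2.20 and 1.92 CPM in relapse, against 2.56 to 6.30 CPM over the vehicle libraries (-1.41 ± 0.27, adjusted p = 0.0476); leaving out libraries was not run for single genes of those lists.

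The relapse libraries differed among themselves. Replicate 2 was the lowest relapse library for 19 of the 32 members and 9 of the 13 synthetases, while it was lowest for 30.4% of all genes tested. Replicate 4 was the highest for 18 of 32 members and 7 of 13 synthetases, and for 22.3% of all genes tested. Relative to the vehicle mean, the median log2 level of the synthetases was 0.15, -0.37, -0.12 and 0.18 in replicates 1 to 4. Atf4 itself had 147.5, 75.4, 151.7 and 155.9 CPM in relapse, against 109.1 to 126.9 CPM over the vehicle libraries, so that replicate 2 was below and the other 3 above every vehicle library. Replicate 4 held most of the reads of the scarce stress targets, with 30 of 45 relapse reads of Nupr1, 33 of 51 of Trib3 and 13 of 18 of Chac1. Mthfd2 was also highest there, at 36.6 CPM, against 16.1, 9.62 and 13.9 CPM in the other relapse libraries. The stem and progenitor markers summed to 471.3, 1119.9, 1007.5 and 461.6 CPM in relapse replicates 1 to 4, so the replicates with higher synthetase levels had the lower marker sums; the part of this difference was not tested. Ppp1r15a stood out in replicate 3 instead, with 47.2 CPM against 11.9, 9.44 and 8.27 CPM in replicates 1, 2 and 4.

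Markers of other cell types moved with the AG120 groups. The summed level of 22 erythroid markers was 2225 to 2451 CPM under AG120 at day 14, against 164 to 210 CPM under vehicle, and 775 to 921 CPM under AG120 at day 5, against 122 to 192 CPM under vehicle. Of these markers 19 rose at day 14 and 14 at day 5. The 8 stem and progenitor markers summed to 34.0 to 36.6 CPM under AG120 at day 14, against 641 to 696 CPM under vehicle, and to 92.5 to 119.5 CPM under AG120 at day 5, against 638 to 821 CPM under vehicle. All 5 tested stem and progenitor markers fell at day 14 and 4 of them at day 5. Kit, the sort marker, was present in every group, at a mean of 35.1 CPM in relapse, 11.6 and 26.9 CPM under AG120 at days 14 and 5, and 35.9 and 35.6 CPM under vehicle at days 14 and 5. Granulocyte markers summed to 479 to 521 CPM under AG120 at day 5, against 1280 to 2090 CPM under vehicle, and to 1461 to 1862 CPM under AG120 at day 14, against 2052 to 2154 CPM under vehicle. Of the 14 granulocyte markers 3 fell at day 14 (Mpo, Cxcr2 and Ms4a3) and 5 at day 5, and 0 rose on either day; the median log2 fold change of the list was 0.29 at day 14 and -1.93 at day 5. Mpo had a mean of 130.5 CPM under AG120 at day 14, against 757.5 CPM under vehicle, while S100a8 had 737.3 CPM under AG120, against 572.3 CPM under vehicle, and Ngp had 252.5 CPM under AG120, against 117.1 CPM under vehicle; neither of these passed. Megakaryocyte markers summed to 71.0 to 79.1 CPM under AG120 at day 14, against 222.5 to 251.3 CPM under vehicle, and to 33.4 to 54.7 CPM under AG120 at day 5, against 252.3 to 311.5 CPM under vehicle. Mast, basophil and eosinophil markers summed to 10.7 to 14.2 CPM under AG120 at day 14, against 87.6 to 90.3 CPM under vehicle. At day 5 they overlapped, at 53.8 to 77.8 CPM under AG120, against 75.3 to 85.4 CPM under vehicle. Of the 6 tested markers of that list, 0 rose and 4 fell at day 14, and 1 rose and 3 fell at day 5. The marker that rose was Prg2, with a mean of 31.6 CPM under AG120 at day 5, against 4.08 CPM under vehicle. Monocyte markers summed to 16.6 ± 0.717 CPM under AG120 at day 5 and 80.1 ± 6.63 CPM under vehicle (SD, n = 3 each), and 3 of the 5 tested fell. At day 14 they summed to 49.3 and 67.1 CPM under AG120, against 89.8 and 88.3 CPM under vehicle, with 1 of the 5 higher and 1 lower. The B-cell, T-cell and stromal sums were at most 3.88 CPM in any library. No marker was at 0 in all libraries. The part of these cell types in the rise of the synthetases was not tested. Within relapse, the erythroid sum was 88.0, 184.4, 528.7 and 84.7 CPM, while the synthetase sum was 784, 514, 621 and 808 CPM, in replicates 1 to 4.

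Between vehicle day 14 and vehicle day 5, 0 of the 32 members and 0.00% of all genes passed in edgeR. DESeq2 and limma-voom also called 0 in both, and 1 member and 574 of all genes had an unadjusted p under 0.05. The median log2 fold change of the 13 synthetases was 0.04.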

How the data were processed

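Sorted leukemia progenitors from 14 mice were profiled by QuantSeq 3′ mRNA sequencing, per the labels' protocols, and each library was taken as 1 mouse. The authors deposited raw counts per gene; columns were matched to libraries by name. The submitters' processing notes list cutadapt 1.14, HISAT2 2.1.0, featureCounts of Subread 1.6.3 and mm10. How strand, multimapping reads and molecular identifiers were handled is not given in the sources used here, so the 11 members that share exonic bases with another gene (0.409% to 15.1% of theirs) are less certain. Symbols and positions came from a GRCm38 annotation matched by identifier.

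Genes were filtered with filterByExpr (minimum count 10, 11994 kept), scaled by TMM and fitted in edgeR 4.0.16 (R 4.3.3) with the robust quasi-likelihood method, 1 coefficient per group over all 14 libraries, so that groups of 2 share the estimate of spread. The threshold was 0.05 after Benjamini-Hochberg adjustment. Relapse was set against the mean of both vehicle groups and the mean of both AG120 groups. Alternatives were other size factors, no filter, DESeq2 1.42.0, limma-voom (limma 3.58.1), a replicate block, omission of ribosomal gene models, a fit of the compared groups only and leaving out each library. Standard errors were derived as the absolute log2 fold change divided by the square root of the F statistic. The 95% intervals of log2 fold changes were built from these errors. Intervals on reads are exact and cover counting error only.

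Members and lists were chosen with earlier results of these data known. All members were to be named, and of each related list the strongest passing genes, up to 3 per direction; a few more from those lists were named after their values were seen. Some genes that this rule covers are not reported here.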

Additional observations from a re-analysis of the deposited data

Results flagged for a closer look

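The Atf4 level of relapse replicate 2 lay far from the other relapse libraries. Relapse had 147.5, 75.4, 151.7 and 155.9 CPM, and on the log2 scale the gap below replicate 1 was 0.924 of the whole range of the group, above Dixon's 95% critical value for 4 samples. Such a gap arises by chance in about 1 in 20 groups, and 32 members were examined. The cause was not tested.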

How the results depend on the processing

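Over 21 alternatives, 13 of 19 calls of set genes at day 5, 8 of 15 at day 14 and 16 of 24 in relapse against AG120 held under each alternative that tested the gene, and no call changed direction. The 13 at day 5 include Nupr1, which was tested in only 18 alternatives. In the others it did not pass the filter on low counts, so they could not challenge its call. Leaving out 1 library gave 13 to 20 calls at day 5, 10 to 16 at day 14, 0 in the difference between days, 0 to 2 in relapse against vehicle, 19 to 25 in relapse against AG120 and 0 between vehicle days; for the synthetases 9 to 12, 7 to 9, 0, 0, 10 to 13 and 0; for all genes 3716 to 5150, 2752 to 4605, 13 to 215, 8 to 117, 5579 to 6514 and 0 to 2. At day 5, deviations from group means correlated at 0.107, 0.049 and 0.017 between libraries with the same replicate number. Pairs with different numbers had -0.106 to 0.077. At day 14 each group had 2 libraries, so the value of 0.069 cannot show whether the numbers pair the samples. With the replicate block 20, 16, 0, 0, 24 and 0 set genes were called. Of the single calls, the block gained Mthfd2 (0.82, adjusted p = 0.00740 at day 14; 0.62, adjusted p = 0.00962 at day 5) and Vars in relapse against AG120 (-0.33, adjusted p = 0.0315), and lost Phgdh there (0.50, adjusted p = 0.124).

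With no filter on low counts, 1 set gene passed in the difference between days (Ddit4, -1.65) and 2 in relapse against vehicle (Sesn2, 0.80; Nupr1, 2.85), and 374, 267 and 33 of all genes passed in the difference between days, relapse against vehicle and vehicle over time. With only the groups compared, 2 set genes passed in the difference between days (Phgdh, -0.95; Sars, 0.48), 1 of them a synthetase, and 869, 7 and 236 of all genes. DESeq2 called 187 and 120 of all genes in the difference between days and relapse against vehicle, and limma-voom 30 and 30, against 112 and 22. The share of higher calls was 22.3% in the difference between days (33.3% by limma-voom, 41.0% with only the groups compared) and 54.5% in relapse against vehicle (65.8% by DESeq2). The cause of these shifts was not tested. Groups of 2 and the low depth of AG120 day 14 replicate 1 limit day 14, and genes with a few reads cannot be compared.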
